A study of Mus musculus with 12 samples.

Results

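The genes described here are 35 mouse genes of sterol and fatty acid synthesis and its control, chosen by name from a written list, out of 29522 genes in each library. The list was drawn up with earlier results of these data known. They are 4 regulators (Srebf1, Srebf2, Insig1 and Scap), the sterol carrier Stard4, 7 enzymes of the mevalonate steps, 11 enzymes from squalene to cholesterol, 10 enzymes of fatty acid synthesis and 2 sterol exporters (Abca1 and Abcg1). The study sequenced total RNA from Th17 cells, helper T cells known for making IL-17, to compare a tryptophan catabolite, an inhibitor and their combination. The cells were wild-type C57BL/6J naive CD4+ T cells, isolated magnetically from spleen, grown with the CytoBox Th17 supplement and activated through CD3 and CD28. The 4 groups were cells with ILA (200 uM, taken to be indole-3-lactic acid, which gut bacteria make from tryptophan), with GSK805 (0.5 uM, an inhibitor of Th17 differentiation), with GSK805+ILA (0.5 uM and 200 uM) and with vehicle, and all groups shared the strain, the genotype and the Th17 culture. Each group had 3 libraries that the labels call biological replicates. No animals or cultures are named, so p-values measure the spread between these libraries, which may be technical.

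Cholesterol and fatty acids are both built from acetyl-CoA in the cytosol. The proteins of Srebf1 and Srebf2 are transcription factors that INSIG proteins hold in the endoplasmic reticulum when sterols are plentiful and that SCAP escorts to the Golgi for activation when sterols run low. The Srebf2 protein acts mainly on sterol synthesis genes and the Srebf1 protein mainly on fatty acid synthesis genes. Activated T cells are known to raise lipid synthesis.

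The depth implied by the values ran from 17840000 to 23490000 reads per library. The summed level of 6 CD4 T cell markers was 507 to 535 FPKM (fragments per kilobase of gene, scaled to library depth) with ILA, 291 to 306 with GSK805, 466 to 484 with GSK805+ILA and 269 to 283 with vehicle. The sum of 4 Th17 markers (Il17a, Il17f, Il23r and Ccr6) was 427 to 470.3 FPKM with ILA, 347 to 399.7 with GSK805, 168 to 194 with GSK805+ILA and 1212 to 1501 with vehicle. All libraries thus carried both marker sets, and the Th17 set was highest with vehicle. Markers of B cells (4 genes) summed to between 1.5 and 2.84 FPKM over all libraries. CD8 T cell markers (2 genes) summed to 1.09 to 1.51 FPKM with ILA, 3.76 to 4.33 with GSK805, 1.68 to 1.80 with GSK805+ILA and 3.77 to 5.23 with vehicle, and of the pair Cd8b1 was tested and was lower with ILA (log2 difference -1.15, adjusted p = 8.22e-06) and with GSK805+ILA (-0.90, adjusted p = 7.71e-05) than with vehicle. Myeloid markers (5 genes) summed to 10.7 to 12.3 FPKM with ILA, 6.81 to 7.59 with GSK805, 9.79 to 12.5 with GSK805+ILA and 6.77 to 8.11 with vehicle. Of the 2 myeloid markers tested against vehicle, 1 was higher and 1 lower with ILA, and 1 was higher with GSK805+ILA. Stromal, endothelial and epithelial markers (5 genes) summed to 29.6 to 31.4 FPKM with ILA, 18 to 18.3 with GSK805, 29.2 to 30.3 with GSK805+ILA and 15.3 to 17.3 with vehicle. The 2 of these tested were higher than vehicle with ILA and with GSK805+ILA, while with GSK805 1 was higher and 1 lower. Of 4 erythroid and platelet markers, Hba-a1 and Hbb-bs stood at 18.2 and 23.3 FPKM in ILA replicate 2 and at no more than 0 and 0.059 FPKM in any other library. The part of these other markers in the results was not tested. The 5 pairwise comparisons share libraries with each other, so their values are given side by side.

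Promoter sequence is shown for 3 members: Hmgcs1, the member with the letters searched for the sterol regulatory element, Mvk, the member with the most CCAAT boxes, and Insig1, a regulator with the letters of a xenobiotic response element. The motifs searched were the sterol regulatory element (searched as TCACNCCAC), the CCAAT box (CCAAT), which binds NF-Y, a usual partner of the Srebf2 protein, and the xenobiotic response element (TNGCGTG), the core bound by the aryl hydrocarbon receptor, a receptor for indole compounds. Both strands of the RefSeq windows from 250 bases before to 50 after each start (GRCm38.p6) were searched, and no motif contains another. Capitals mark the matches, and ATTGG is CCAAT on the other strand. Each line gives the 250 bases before the start, on the + strand.
Hmgcs1, chr13:119690101-119690350: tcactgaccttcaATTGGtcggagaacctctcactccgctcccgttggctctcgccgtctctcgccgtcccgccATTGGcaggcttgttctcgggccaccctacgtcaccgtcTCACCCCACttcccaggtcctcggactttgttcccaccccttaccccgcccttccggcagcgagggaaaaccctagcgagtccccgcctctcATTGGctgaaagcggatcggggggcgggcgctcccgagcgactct
Insig1, chr5:28071162-28071411: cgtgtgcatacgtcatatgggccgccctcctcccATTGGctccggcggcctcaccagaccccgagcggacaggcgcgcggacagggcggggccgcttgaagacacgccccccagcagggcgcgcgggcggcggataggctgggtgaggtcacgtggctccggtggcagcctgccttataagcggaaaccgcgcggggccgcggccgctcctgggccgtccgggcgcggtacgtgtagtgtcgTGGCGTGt
Mvk, chr5:114444019-114444268: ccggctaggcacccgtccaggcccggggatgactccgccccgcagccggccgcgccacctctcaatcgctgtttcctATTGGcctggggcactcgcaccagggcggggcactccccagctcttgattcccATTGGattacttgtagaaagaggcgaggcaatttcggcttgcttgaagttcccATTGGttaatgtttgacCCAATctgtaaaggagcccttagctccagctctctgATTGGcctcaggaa
Windows were found for 27 of the 35 members. A CCAAT box was present in 21 of those 27, in 14 of 15 sterol enzymes and in 4 of 7 fatty acid enzymes, beside 41.06% of 27025 genes with a window. Mvk had 5 boxes in a window, and Hmgcs1 and Nsdhl had 4 each. The letters of the sterol regulatory element were found in 1 member, Hmgcs1, beside 1.44% of all genes. Those of the xenobiotic response element were found in 2 members, Acat2 and Insig1, beside 5.84% of all genes. A match describes letters and is not evidence of a bound site. Other forms of these sites were not searched, so a missing match does not show that a site is absent.

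Levels differed widely among the members. On the FPKM scale, which is per length, Acly was highest, at 57.0 to 232 FPKM over the 12 libraries, followed by Fasn at 43.1 to 58.8 and Srebf2 at 34 to 57.9. Fdps, which makes farnesyl diphosphate, and the desaturase gene Scd1 stayed below a mean of 1 FPKM in every group and were not tested, which left 33 members. Fads2 was kept only through its level with ILA. In all, 9 members hold a stretch of at least 300 bases that is at least 90% identical to another gene, and their levels are uncertain where counting could split such reads. Acaca matched Gm5182 at 99.2% over 6118 of its 9513 transcript bases, and Gm5182 lay between 0.890 and 2.13 FPKM. Acat2 matched Acat3 at 97.7% over 1477 of 2250 bases, and Acat3 lay between 12 and 20.8 FPKM. It also matched Tcp1 at 98.7% over 445 bases, and Tcp1 lay between 53.2 and 71.6 FPKM. Fdps matched 6 other genes, the highest of those measured being Gm3571 at 0.638 to 1.97 FPKM. Fdft1 overlaps Ctsb, Hmgcs1 overlaps Gm48342, Cyp51 overlaps Akap9, Elovl1 overlaps Cdc20 and Srebf1 overlaps Rai1 on the opposite strand, and Tm7sf2 overlaps Vps51 on its own strand. Also on the opposite strand, Scap overlaps 5830462I19Rik (mean 8.61 FPKM) and Lss overlaps 4930483K19Rik (mean 2.075 FPKM). With no statement on strand in the sources used here, reads of such neighbours cannot be told apart.

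Cells with ILA were compared with vehicle cells to see what the catabolite did alone. With ILA, Srebf2 and 10 sterol enzymes rose, among them the mevalonate kinases and the last reductase, Dhcr7. The fatty acid enzymes split, with Acly, Acaca, Fasn and the elongase Elovl1 lower and the desaturases and elongases Scd2, Fads1, Elovl5 and Elovl6 higher. The exporter Abca1 and the retention factor Insig1 fell. Of the 33 tested members, 18 rose and 7 fell at an adjusted p below 0.05 in limma, beside 57.9% of all 13511 genes called, 33.9% higher and 24.0% lower. Fads2 is among the 18, though it entered the test only through its level with ILA; without it 17 rose. The excess of rises depended on scaling, with 13 higher and 10 lower after quantile normalization and 12 and 12 after centring each library on its median. For 18 members every ILA library lay above every vehicle library and for 8 every one lay below, beside 62.8% of all genes with groups apart in either direction. Fads2, kept only through its level with ILA, is also among these 18. In bulk RNA, fewer cells of a type and less RNA per cell cannot be told apart.

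**Figure D1:**
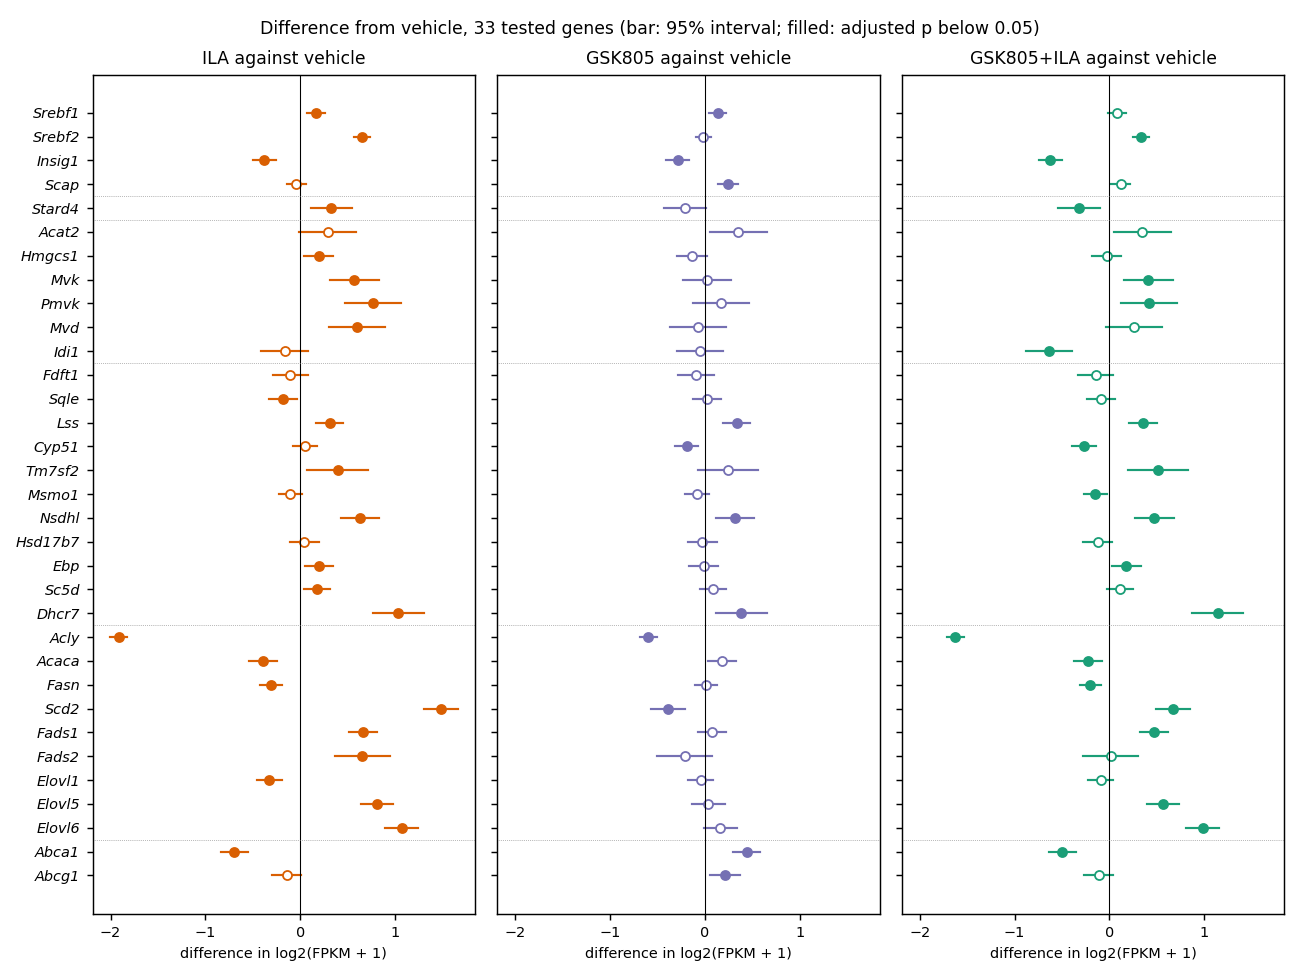
Difference from vehicle in log2(FPKM + 1) (x axis) for the 33 tested genes (rows, by role) with ILA, GSK805 and GSK805+ILA. Bars are 95% intervals from limma and filled points have an adjusted p below 0.05. Acly lies farthest left with ILA (-1.91) and Scd2 farthest right (1.48), while with GSK805 alone most intervals cross 0.

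Among the regulators, Srebf2 had 55.2, 57.9 and 56.8 FPKM with ILA, 36.4, 34 and 35.6 with GSK805, 45.5, 46.5 and 43.9 with GSK805+ILA and 35, 36.4 and 35.6 with vehicle. The ILA libraries lay highest, the GSK805+ILA libraries next, and the GSK805 and vehicle libraries overlapped. With ILA it was 1.57-fold above vehicle (log2 difference 0.65, SE 0.04, adjusted p = 6.89e-08); all folds here are ratios of FPKM + 1, a scale that understates the change of low genes. Srebf1 had 31.2, 31.7 and 30.6 FPKM with ILA, 31.6, 29.9 and 30.0 with GSK805, 30.9, 28.3 and 28.8 with GSK805+ILA and 26.8, 28.8 and 27.5 with vehicle. The ILA and GSK805 libraries lay just above the vehicle libraries, and its log2 difference with ILA was 0.16 (SE 0.04, adjusted p = 0.00668). Insig1, whose protein retains SCAP in the endoplasmic reticulum, had 24.4, 26.6 and 24.9 FPKM with ILA, 25.1, 28.8 and 27.2 with GSK805, 21.6, 20.3 and 21.6 with GSK805+ILA and 31.5, 34 and 34 with vehicle. All treated libraries lay below all vehicle libraries, and with ILA Insig1 was 1.3-fold lower (log2 difference -0.38, SE 0.06, adjusted p = 0.000125). Scap, the escort, averaged 16.3 ± 0.596 FPKM with ILA, 20.1 ± 0.449 with GSK805, 18.4 ± 0.680 with GSK805+ILA and 16.8 ± 0.839 with vehicle (SD, n = 3 each), and did not pass with ILA. After median centring Scap was called lower with ILA (adjusted p = 0.00542). The carrier Stard4, which moves sterol through the cytosol, had 4.90, 4.73 and 4.20 FPKM with ILA, 2.79, 3.15 and 2.68 with GSK805, 3.04, 2.07 and 2.69 with GSK805+ILA and 3.68, 3.32 and 3.39 with vehicle. It was highest in the ILA libraries, with no overlap with vehicle, and 1.26-fold above it (log2 difference 0.33, SE 0.10, adjusted p = 0.0146).

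Of the 6 tested mevalonate enzymes, 4 rose with ILA, beside the 33.9% of all genes that were higher, and none was called lower; Idi1 was called lower after either rescaling (adjusted p 0.0238 to 0.0392) and Hmgcs1 lost its call after median centring (adjusted p = 0.499). The largest rise was in Pmvk, the phosphomevalonate kinase, with 6.27, 7.05 and 6.81 FPKM with ILA, 4.46, 5.11 and 2.97 with GSK805, 5.02, 5.64 and 4.55 with GSK805+ILA and 3.34, 3.87 and 3.40 with vehicle. Its ILA libraries were the highest and the GSK805 libraries straddled the vehicle libraries; the rise with ILA was 1.70-fold (log2 difference 0.76, SE 0.13, adjusted p = 0.000494). Mvd, the diphosphate decarboxylase, spanned 6.12 to 13.8 FPKM over the 12 libraries and Mvk, the first kinase, 0.979 to 2.47. With ILA, Mvd rose by a log2 difference of 0.60 (adjusted p = 0.0025) and Mvk by 0.57 (adjusted p = 0.00134). Hmgcs1, the HMG-CoA synthase, had 20.6, 17.5 and 16.4 FPKM with ILA, against 15.6, 15.7 and 15.9 with vehicle, without overlap and with a log2 difference of 0.19 (adjusted p = 0.034). Idi1, the isopentenyl diphosphate isomerase, had a log2 difference of -0.17 with ILA (adjusted p = 0.225), and the thiolase Acat2 one of 0.29 (adjusted p = 0.0955). Fdps, too low to test, stood at 0.297, 0.278 and 0.320 FPKM with ILA, 0.294, 0.295 and 0.385 with GSK805, 0.0766, 0.233 and 0.223 with GSK805+ILA and 0.622, 0.452 and 0.415 with vehicle.

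Of the 11 enzymes from squalene to cholesterol, 6 rose with ILA and 1 fell, beside 33.9% of all genes higher and 24.0% lower. Dhcr7, which reduces 7-dehydrocholesterol to cholesterol, had 2.96, 3.64 and 2.82 FPKM with ILA, 2.06, 1.65 and 1.24 with GSK805, 3.54, 3.03 and 3.79 with GSK805+ILA and 1.07, 1.02 and 0.942 with vehicle. Every treated library lay above every vehicle library, and the rise with ILA was 2.05-fold (log2 difference 1.04, SE 0.12, adjusted p = 2.15e-05). Nsdhl, a sterol dehydrogenase of the demethylation steps, had 3.23, 2.83 and 2.53 FPKM with ILA, 2.29, 2.03 and 2.00 with GSK805, 2.52, 2.47 and 2.39 with GSK805+ILA and 1.58, 1.23 and 1.68 with vehicle. Its vehicle libraries were the lowest, and the rise with ILA was 1.55-fold (log2 difference 0.63, SE 0.09, adjusted p = 0.000131). Lss, the lanosterol synthase, had 3.32, 3.19 and 3.42 FPKM with ILA, 3.29, 3.22 and 3.62 with GSK805, 3.16, 3.60 and 3.56 with GSK805+ILA and 2.48, 2.45 and 2.48 with vehicle. The treated groups overlapped one another and lay above vehicle, by a log2 difference of 0.31 with ILA (adjusted p = 0.00159). The reductase Tm7sf2 rose by a log2 difference of 0.39, the isomerase Ebp by 0.20 and the desaturase Sc5d by 0.18, while Sqle, the squalene epoxidase, fell by 0.19. Cyp51, the lanosterol demethylase, averaged 12.4 ± 0.747 FPKM with ILA and 12 ± 0.230 with vehicle (SD, n = 3 each; adjusted p = 0.471), and Fdft1, the squalene synthase, Msmo1, the methylsterol oxidase, and Hsd17b7, a sterol reductase, did not pass either. Fdft1 was called lower after either rescaling (adjusted p 0.0316 to 0.0326) and Msmo1 after median centring (adjusted p = 0.00314). Scaling mattered for this group: 10 of the 17 tested sterol enzymes were higher and 1 lower as deposited, against 6 and 3 after quantile normalization and 6 and 4 after median centring. Of all 13511 genes tested, 4582 were higher and 3236 lower as deposited. Those counts became 3590 and 4172 after quantile normalization and 3271 and 4723 after median centring.

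Of the 8 fatty acid enzymes tested apart from Fads2, 4 were higher and 4 lower with ILA, beside 33.9% and 24.0% of all genes. With Fads2 the split was 5 and 4, as deposited and under both scalings. Acly, which cleaves citrate to cytosolic acetyl-CoA for both pathways, had 57.0, 60.1 and 61.5 FPKM with ILA, 143, 150 and 157 with GSK805, 73.0, 71.9 and 74.2 with GSK805+ILA and 228, 232 and 222 with vehicle. No 2 groups overlapped, and with ILA it was 3.77-fold below vehicle (log2 difference -1.91, SE 0.04, adjusted p = 2.58e-10). Fasn, the fatty acid synthase, had 43.1, 44.1 and 45.4 FPKM with ILA, 51.7, 56.4 and 57.6 with GSK805, 48.4, 46.1 and 48.4 with GSK805+ILA and 58.8, 53.7 and 52.1 with vehicle. The ILA and GSK805+ILA libraries lay below the others, and the fall with ILA was 1.24-fold (log2 difference -0.31, SE 0.05, adjusted p = 0.000405). Acaca, the acetyl-CoA carboxylase, had 3.53, 3.14 and 3.78 FPKM with ILA, 5.47, 5.84 and 5.72 with GSK805, 4.30, 3.90 and 3.92 with GSK805+ILA and 5.21, 4.72 and 4.71 with vehicle. It was lowest with ILA and highest with GSK805, and the fall with ILA was 1.31-fold (adjusted p = 0.000449). Elovl1, an elongase of very long chains, fell by 0.33 on the log2 scale (adjusted p = 0.000774).

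Among the desaturases, Scd2 had 21.2, 21.3 and 19.8 FPKM with ILA, 4.59, 4.79 and 5.51 with GSK805, 11.1, 11.9 and 11.1 with GSK805+ILA and 5.85, 7.26 and 7.29 with vehicle. No 2 groups overlapped, with ILA highest and GSK805 lowest, and the rise with ILA was 2.80-fold (log2 difference 1.48, SE 0.08, adjusted p = 5.13e-08). Its paralog Scd1 stood at 0.416, 0.511 and 0.458 FPKM with ILA, 0.148, 0.151 and 0.0778 with GSK805, 0.351, 0.373 and 0.566 with GSK805+ILA and 0.111, 0.219 and 0.159 with vehicle. The groups with ILA in the culture did not overlap those without it, but all values are low and Scd1 shares 623 bases at 95.5% identity with Scd2. Elovl6, which lengthens palmitate, had 4.14, 3.69 and 3.67 FPKM with ILA, 1.81, 1.41 and 1.52 with GSK805, 3.51, 3.65 and 3.47 with GSK805+ILA and 1.35, 1.37 and 1.18 with vehicle. Both groups with ILA lay above both groups without it, and the rise with ILA alone was 2.10-fold (log2 difference 1.07, SE 0.08, adjusted p = 5.1e-07). Elovl5, an elongase of polyunsaturated fatty acids, had 18.6, 17.8 and 15.9 FPKM with ILA, 9.77, 10.8 and 8.84 with GSK805, 15.8, 13.9 and 14 with GSK805+ILA and 9.16, 9.89 and 9.43 with vehicle. Again the groups with ILA lay above those without it; Elovl5 rose 1.75-fold (adjusted p = 4.42e-06) and Fads1, a desaturase of polyunsaturated fatty acids, 1.58-fold (adjusted p = 6.39e-06). Fads2, its partner, had 1.04, 0.920 and 1.24 FPKM with ILA, 0.143, 0.112 and 0.144 with GSK805, 0.277, 0.311 and 0.388 with GSK805+ILA and 0.219, 0.444 and 0.280 with vehicle. Its ILA libraries lay above all others, but its place in the test rests on that level, so its call is not counted as support.

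**Figure D2:**
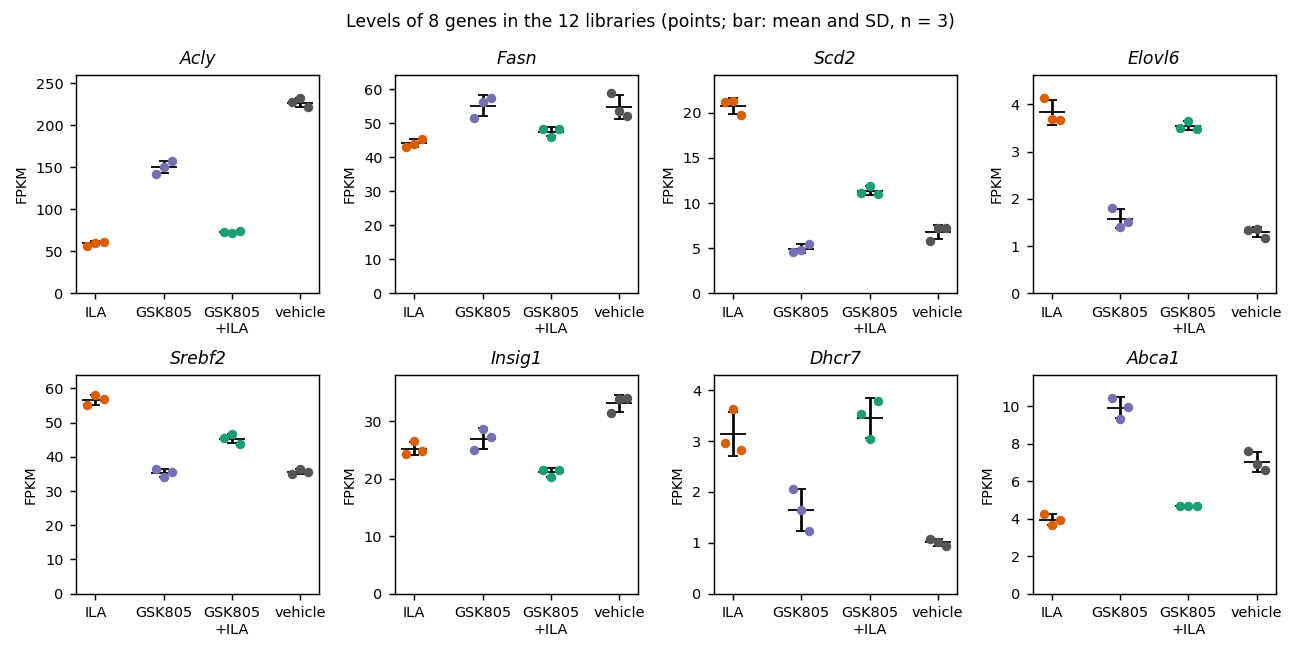
Level in FPKM (y axis, linear from 0) of 8 members in each library, by group (x axis); points are libraries and bars the mean and SD of 3. Acly is lowest in the groups with ILA, Scd2, Elovl6 and Dhcr7 are higher there than with vehicle, and Abca1 is highest with GSK805 alone.

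The exporters, whose genes are known targets of the liver X receptors, were lower or not called with ILA. Abca1 had 4.25, 3.67 and 3.94 FPKM with ILA, 10.4, 9.33 and 9.98 with GSK805, 4.68, 4.69 and 4.66 with GSK805+ILA and 7.59, 6.93 and 6.58 with vehicle. No 2 groups overlapped, and with ILA it was 1.62-fold below vehicle (log2 difference -0.70, SE 0.06, adjusted p = 3.48e-06). Abcg1 had 2.16, 2.21 and 2.09 FPKM with ILA, 2.83, 2.91 and 3.40 with GSK805, 2.18, 2.23 and 2.27 with GSK805+ILA and 2.40, 2.58 and 2.48 with vehicle. Its ILA libraries lay just below the vehicle libraries, but the log2 difference of -0.14 did not pass (adjusted p = 0.1). After either rescaling Abcg1 was called lower (adjusted p 0.00168 to 0.00561), as it was in limma without trend or robust options (0.0424). Of the 25 calls with ILA, 17 held under every alternative run. Leaving out 1 library ended the calls on Ebp (vehicle 1, ILA 1 or 2), Hmgcs1 (any vehicle, ILA 1), Sc5d (vehicle 2, ILA 2 or 3), Sqle (vehicle 1 or 3, ILA 2 or 3), Stard4 (ILA 1) and Tm7sf2 (vehicle 1 or 3, any ILA), with adjusted p of 0.0534 to 0.142. Rescaling ended the calls on Ebp (adjusted p up to 0.454), Hmgcs1 (0.499), Sc5d (0.557), Stard4 (0.255), Tm7sf2 (0.186), Lss (0.163) and Srebf1 (0.613). It also brought new calls, all lower, on Abcg1, Fdft1, Idi1, Msmo1 and Scap.

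GSK805 alone was compared with vehicle to see what the inhibitor alone did to the same genes. Fewer members passed than with ILA: 7 rose and 4 fell of 33 in limma, beside 22.8% of all genes called, 15.7% higher and 7.08% lower. The exporters rose, though the call on Abcg1 was lost under 18 of 20 alternatives. Acly and Scd2 fell, and none of the 6 tested mevalonate enzymes passed. Acat2 was called higher with voom (adjusted p = 0.0343) and when vehicle 1 or ILA 3 was left out, and Pmvk without GSK805 3 (adjusted p = 0.0282). For 10 members every GSK805 library lay above every vehicle library and for 8 below, beside 38.7% of all genes with groups apart. Acly was 1.51-fold below vehicle (log2 difference -0.59, SE 0.04, adjusted p = 9.88e-06) and Scd2 1.31-fold below (log2 difference -0.38, SE 0.08, adjusted p = 0.00639). Insig1 was 1.22-fold lower (adjusted p = 0.00392) and Scap 1.19-fold higher (adjusted p = 0.00352), while the interval for Srebf2 ran from -0.10 to 0.07 on the log2 scale (adjusted p = 0.826). Among the sterol enzymes Lss rose 1.26-fold (adjusted p = 0.00401), Dhcr7 1.31-fold (adjusted p = 0.0416) and Nsdhl 1.25-fold (adjusted p = 0.0308), and Cyp51 was 1.14-fold lower (adjusted p = 0.0321). Abca1 rose 1.36-fold (log2 difference 0.44, SE 0.06, adjusted p = 0.000762) and Abcg1 1.16-fold (adjusted p = 0.0495), and Srebf1 had a log2 difference of 0.13 (adjusted p = 0.0431). Fasn had a log2 difference of 0.01 with an interval of -0.11 to 0.12, and Acaca one of 0.18 (adjusted p = 0.0768).

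Of these 11 calls with GSK805, 6 held under every alternative run, namely Abca1, Acly, Insig1, Lss, Scap and Scd2. The calls on Abcg1, Cyp51, Dhcr7, Nsdhl and Srebf1 were each ended by leaving out 1 library, with adjusted p of 0.0512 to 0.17; for Cyp51 any vehicle or GSK805 library did so, for Nsdhl vehicle 2 or any GSK805 library, and for Abcg1 any of the 12. For Dhcr7 it was any vehicle library, GSK805 1 or 2, ILA 1 or GSK805+ILA 1, and for Srebf1 vehicle 1 or 3, any GSK805 or ILA library or GSK805+ILA 3. The member count fell to 7 without vehicle replicate 2 or 3 and to 6 without GSK805 replicate 1 or 2. After either rescaling 3 members were higher and 4 lower, so the excess of rises with GSK805 depended on the scaling; rescaling ended the calls on Abcg1, Dhcr7, Nsdhl and Srebf1, with adjusted p up to 0.401 for Srebf1.

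The combination was set against vehicle to see the joint outcome. With GSK805+ILA, 12 of 33 members rose and 9 fell in limma, beside 52.1% of all genes called, 31.8% higher and 20.3% lower. The leading direction turned with scaling, to 9 higher and 13 lower after quantile normalization and 9 and 14 after median centring. Every GSK805+ILA library lay above every vehicle library for 14 members and below for 14, beside 59.2% of all genes with groups apart. As with ILA alone, Srebf2, Dhcr7, Scd2 and Elovl6 were higher than vehicle and Acly, Insig1 and Abca1 lower. Srebf2 was 1.26-fold higher (log2 difference 0.34, SE 0.04, adjusted p = 1.86e-05) and Dhcr7 2.21-fold higher (log2 difference 1.14, SE 0.12, adjusted p = 1.31e-05). Insig1 was 1.54-fold lower (log2 difference -0.62, SE 0.06, adjusted p = 3.41e-06) and Acly 3.08-fold lower (log2 difference -1.62, SE 0.04, adjusted p = 7.89e-10). Abca1 was 1.41-fold lower (log2 difference -0.50, adjusted p = 6.45e-05). Elovl6 rose 1.98-fold, Scd2 1.59-fold, Elovl5 1.48-fold and Fads1 1.38-fold, and Fasn was 1.15-fold lower (adjusted p = 0.00759).

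Several sterol genes were below vehicle with the combination. Idi1 had 5.44, 4.82 and 5.74 FPKM with ILA, 4.71, 6.61 and 6.40 with GSK805, 3.48, 3.30 and 3.95 with GSK805+ILA and 5.65, 5.94 and 6.72 with vehicle. The GSK805+ILA libraries lay below all others, at 1.55-fold under vehicle (log2 difference -0.63, SE 0.11, adjusted p = 0.000569). Cyp51 had 12.7, 11.6 and 13.0 FPKM with ILA, 10.05, 10.6 and 10.4 with GSK805, 9.03, 10.4 and 9.97 with GSK805+ILA and 12, 12.2 and 11.7 with vehicle. Both groups with GSK805 lay below both without it, and the combination was 1.2-fold under vehicle (log2 difference -0.27, SE 0.06, adjusted p = 0.00213). Stard4 was 1.25-fold lower (adjusted p = 0.0198) and Msmo1 had a log2 difference of -0.15 (adjusted p = 0.0466). As deposited, 7 of the 17 tested sterol enzymes were higher and 3 lower with GSK805+ILA, beside 31.8% and 20.3% of all genes. After either rescaling 4 were higher and 6 lower, so the leading direction of this group depended on the scaling. It also turned over all genes, with 3314 higher and 3618 lower after quantile normalization and 2985 and 4437 after median centring. For the fatty acid enzymes the split was 4 and 3 as deposited and after quantile normalization and 4 and 4 after median centring. Of the 21 calls, 15 held under every alternative; leaving out 1 library ended those on Acaca (vehicle 1, GSK805+ILA 2 or 3), Pmvk (vehicle 1 or 3, GSK805+ILA 1 or 2), Stard4 (vehicle 1, GSK805+ILA 2), Ebp (any vehicle or GSK805+ILA, ILA 1 or 2, GSK805 2) and Msmo1 (any vehicle, ILA 3, GSK805 2 or 3, GSK805+ILA 2 or 3), with adjusted p of 0.0503 to 0.168. Either rescaling ended those on Mvk (adjusted p 0.0676 to 0.0714), Pmvk (0.101 to 0.129) and Ebp (0.388 to 0.627). Either also brought new calls, all lower, on Abcg1, Fdft1, Hsd17b7 and Sqle, and median centring did so for Elovl1.

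Cells with GSK805+ILA were next compared with cells with GSK805, which asks what ILA did under the inhibitor. Of 33 members, 8 rose and 7 fell, beside 39.5% of all genes called, 22.0% higher and 17.5% lower; after quantile normalization 6 were higher and 8 lower and after median centring 7 and 8. Every GSK805+ILA library lay above every GSK805 library for 10 members and below for 8, beside 52.1% of all genes with groups apart. Fatty acid enzymes made up 7 of these 15 calls, and both exporters fell. Scd2 was 2.08-fold higher (log2 difference 1.05, SE 0.08, adjusted p = 2.61e-06), Elovl6 1.77-fold higher (adjusted p = 1.25e-05), Elovl5 1.44-fold higher (adjusted p = 0.000277) and Fads1 1.31-fold higher (adjusted p = 0.000706). Acly was 2.04-fold lower (log2 difference -1.03, SE 0.04, adjusted p = 5.75e-08), Acaca 1.33-fold lower (adjusted p = 0.000698) and Fasn 1.16-fold lower (adjusted p = 0.00849). Abca1 was 1.92-fold lower (log2 difference -0.94, SE 0.06, adjusted p = 1.22e-06) and Abcg1 1.25-fold lower (adjusted p = 0.00356). Srebf2 rose 1.27-fold (adjusted p = 2.63e-05), Insig1 had a log2 difference of -0.34 (adjusted p = 0.000624), Dhcr7 rose 1.69-fold (adjusted p = 0.000493) and Idi1 was 1.5-fold lower (adjusted p = 0.00156). Only 4 of the 17 tested sterol enzymes passed, 3 higher and 1 lower (1 and 1 after quantile normalization, 2 and 1 after median centring). Either rescaling ended the call on Ebp (adjusted p 0.0965 to 0.149), and quantile normalization that on Mvk (adjusted p = 0.07). Scap was called lower after either rescaling (adjusted p 0.0062 to 0.0476). Leaving out 1 library ended the calls on Mvk (GSK805 3 or GSK805+ILA 3) and Ebp (vehicle 2 or 3, ILA 1 or 2, GSK805 3, any GSK805+ILA), with adjusted p of 0.0527 to 0.159.

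Against cells with ILA alone, cells with GSK805+ILA had 3 members higher and 8 lower of 33, beside 18.6% of all genes called, 9.92% higher and 8.64% lower. Every GSK805+ILA library lay above every ILA library for 6 members and below for 15, Fads2 among the 15, beside 37.2% of all genes with groups apart. The falls were in Srebf2, Insig1, Stard4, Hmgcs1, Idi1, Cyp51, Scd2 and Fads2, and the rises in Acly, Elovl1 and Scap. Fads2 entered the test only through its level with ILA, and without it 7 fell. Srebf2 was 1.25-fold lower (log2 difference -0.32, SE 0.04, adjusted p = 0.000294), Stard4 1.57-fold lower (log2 difference -0.65, SE 0.10, adjusted p = 0.0015) and Scd2 1.76-fold lower (log2 difference -0.81, SE 0.08, adjusted p = 0.000113). Cyp51 was 1.25-fold lower (adjusted p = 0.00336), Idi1 1.38-fold lower (adjusted p = 0.0141) and Insig1 had a log2 difference of -0.24 (adjusted p = 0.0117). Acly was 1.22-fold higher (log2 difference 0.29, SE 0.04, adjusted p = 0.000968). Dhcr7, Elovl6 and Abca1 did not pass; the interval for Elovl6 ran from -0.26 to 0.09 on the log2 scale. Abca1 was called higher after quantile normalization (adjusted p = 0.036) and with voom (adjusted p = 0.0195), but not after median centring. Elovl5 was called lower after either rescaling (adjusted p 0.0265 to 0.0478) and with voom (adjusted p = 0.00476). Quantile normalization ended the call on Scap (adjusted p = 0.0592) and median centring that on Hmgcs1 (adjusted p = 0.0507). Leaving out 1 library ended the calls on Elovl1 (ILA 1 or 2, GSK805+ILA 3), Scap (any ILA, GSK805 2, GSK805+ILA 1 or 3) and Hmgcs1 (10 of the 12 libraries), with adjusted p of 0.0509 to 0.154, and without GSK805+ILA replicate 3 the count over all genes dropped to 1604, against 2507 with all libraries.

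The interaction asked whether the ILA difference under GSK805 differed from that without it. In limma 1 member was positive and 4 negative, beside 13.8% of all genes called, 5.15% positive and 8.70% negative. After quantile normalization 1 member was positive and 3 were negative. After median centring 2 members were positive and 1 negative, and the share of positive calls among all genes called was 63.2%, against 37.2% as deposited. With ILA, Acly fell by 1.03 on the log2 scale under GSK805 and by 1.91 without it, and the interaction was 0.89 (SE 0.06, adjusted p = 8.59e-05). For Srebf2 the ILA differences were 0.35 under GSK805 and 0.65 without it, and the interaction was -0.30 (SE 0.05, adjusted p = 0.0051). These calls, on Acly and Srebf2, held under every alternative run. For Scd2 the interaction was -0.43 (SE 0.11, adjusted p = 0.0311), for Nsdhl -0.48 (SE 0.13, adjusted p = 0.0357) and for Srebf1 -0.22 (SE 0.06, adjusted p = 0.0351). These 3 calls were lost when certain single libraries were left out (adjusted p 0.0502 to 0.0848): for Scd2 ILA 1 or 2, GSK805 2 or 3 or GSK805+ILA 1 or 3; for Nsdhl vehicle 2, ILA 1 or 2, GSK805 1 or 2 or any GSK805+ILA; for Srebf1 vehicle 1 or 3, ILA 1 or 2, GSK805 1 or 2 or GSK805+ILA 2 or 3. The member count fell to 2 without ILA replicate 1 or 2, GSK805 replicate 2 or GSK805+ILA replicate 3 and to 3 without GSK805+ILA replicate 2. For Abca1 the interaction was -0.24 (adjusted p = 0.101), and for Elovl6 -0.25 (adjusted p = 0.159), so a difference in their ILA response was not detected.

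**Figure D3:**
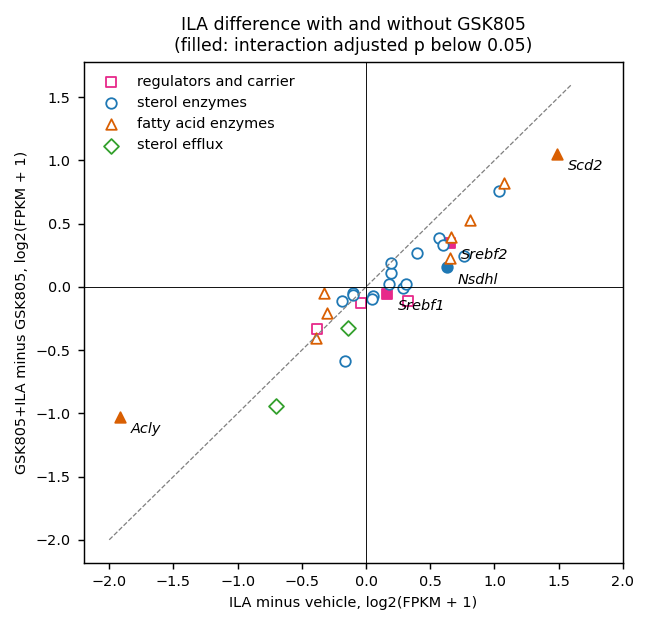
ILA difference under GSK805 (y axis) against that without it (x axis), both in log2(FPKM + 1), for the 33 tested genes; the dashed line marks equal differences and filled points have an interaction adjusted p below 0.05. The 2 axes share no library. Acly (1.03 down against 1.91 down) lies above the line, and Scd2, Srebf2, Nsdhl and Srebf1 lie below it.

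Set side by side with the fatty acid enzymes, the sterol enzymes had a narrower spread of summed levels between groups, but only with Acly counted. The median log2 difference with ILA against vehicle was 0.20 over the 18 sterol enzymes and 0.49 over the 10 fatty acid enzymes, beside 0.06 over all genes tested. The fatty acid median fell between Scd1, which was not tested, and Fads2, kept only through its level with ILA. Without Fads2 the tested fatty acid enzymes split into 4 higher and 4 lower. The 0.49 therefore does not show a larger rise than the 0.20. With GSK805 the medians were 0.01 and -0.02 beside 0.05, and with GSK805+ILA 0.14 and 0.16 beside 0.06. No test was made between the lists. Summed per library, the sterol enzymes reached 128 ± 2.56 FPKM with ILA, 111 ± 4.41 with GSK805, 115 ± 0.757 with GSK805+ILA and 111 ± 0.485 with vehicle (SD, n = 3 each). The fatty acid enzymes summed to 187 ± 3.89 FPKM with ILA, 267 ± 11.6 with GSK805, 195 ± 2.80 with GSK805+ILA and 346 ± 7.96 with vehicle. Without Acly their sums were 127 ± 1.96, 117 ± 4.40, 122 ± 1.84 and 119 ± 2.98 FPKM in the same order of groups, so Acly carried most of the difference between the sums. Left without Acly, the fatty acid sums spread less between groups than the sterol sums. The 7 desaturases and elongases alone summed to 79.5 ± 0.847 FPKM with ILA, 56.4 ± 1.18 with GSK805, 70.4 ± 0.362 with GSK805+ILA and 58.7 ± 2.41 with vehicle. Over all genes tested, the median log2 difference of ILA from vehicle was 0.06 as deposited and -0.07 after median centring, so small differences of the sterol list should be read against that shift.

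**Figure D4:**
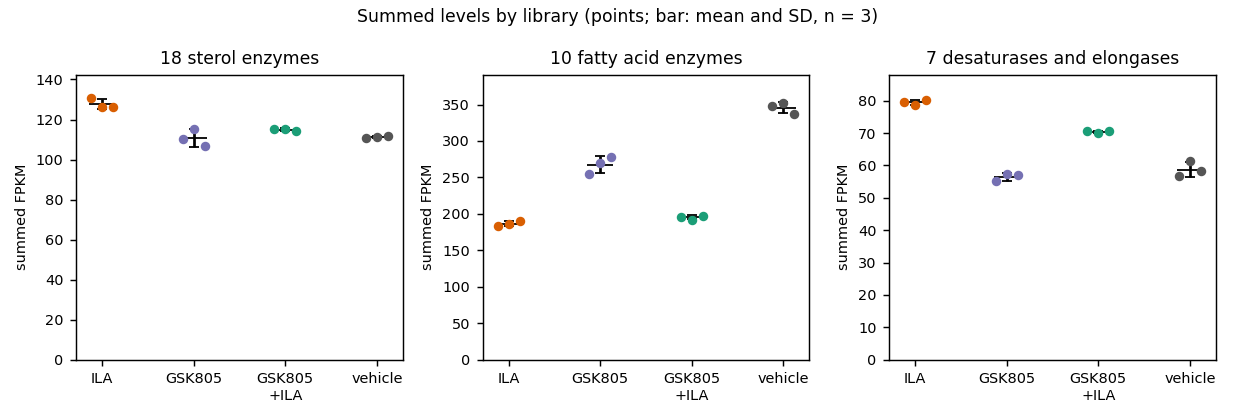
Summed FPKM (y axis, linear from 0) of 18 sterol enzymes, 10 fatty acid enzymes and 7 desaturases and elongases in each library, by group (x axis); points are libraries and bars the mean and SD of 3. The sterol sums lie between 107 and 131 FPKM in all groups, while the fatty acid sums lie between 183 and 191 with ILA and between 337 and 352 with vehicle.

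Other genes of the 2 pathways came from lists written with earlier results of these data known. Of 18 other sterol genes, 15 were tested; 7 rose and 3 fell with ILA, 2 rose with GSK805, and 8 rose and 1 fell with GSK805+ILA, each against vehicle in limma. Those calls came to 66.7%, 13.3% and 60.0% of the 15, beside 57.9%, 22.8% and 52.1% of all genes in the same order. The largest fall with ILA was in Osbp, an oxysterol-binding protein, at 38.0 ± 1.46 FPKM with ILA and 62.9 ± 3.08 with vehicle (SD, n = 3 each; 1.64-fold lower, adjusted p = 2.06e-07), and it was also the largest fall with GSK805+ILA (1.40-fold lower, adjusted p = 6.25e-06). Npc1, which exports cholesterol from lysosomes, had the largest rise with GSK805 (1.38-fold, adjusted p = 0.000885) and with GSK805+ILA (1.65-fold, adjusted p = 6.03e-06). Of 21 other fatty acid genes, 15 were tested; 4 rose and 4 fell with ILA, 3 rose and 2 fell with GSK805, and 4 rose and 4 fell with GSK805+ILA. Those calls came to 53.3%, 33.3% and 53.3% of the 15, beside the same shares of all genes. Dgat1, which makes triglyceride, had 56.2, 60.1 and 57.5 FPKM with ILA, 10.8, 10.4 and 9.95 with GSK805, 26.1, 29.2 and 24.7 with GSK805+ILA and 13.7, 14 and 15.0 with vehicle. No 2 groups overlapped, and it rose 3.87-fold with ILA (log2 difference 1.95, SE 0.06, adjusted p = 1.63e-09) and 1.81-fold with GSK805+ILA (adjusted p = 4.23e-07), the largest rise of its list in each. The largest falls were in Hsd17b12, a reductase of chain elongation, with ILA (1.35-fold lower, adjusted p = 1.03e-06) and in Acsl4, which activates polyunsaturated fatty acids, with GSK805 (1.38-fold lower, adjusted p = 8.6e-05) and with GSK805+ILA (1.32-fold lower, adjusted p = 3.22e-05). With GSK805 the largest rise was in the elongase Elovl7 (1.26-fold, adjusted p = 0.0194).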

How the data were processed

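The unit is FPKM per gene, calculated by the authors and read here from 1 deposited file per library. The submitters' processing notes name FastQC 0.11.2 for read quality and Bowtie for alignment to mm10. The version of Bowtie, the read counter, its annotation and its strand setting are not stated in those sources. Of 29522 genes, 28807 had a symbol from GENCODE vM21 (GRCm38, the build of mm10). With its gene lengths, 98.6 to 98.8% of the values in a library came out whole (tolerance 0.1 read). The recovered reads gave the depth and a voom alternative.

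The 35 members, the lists and the tests were chosen with earlier results of these data known. The tests used log2(FPKM + 1) of the 13511 genes whose mean reached 1 FPKM in any group. limma 3.58.1 (R 4.3.3) estimated 4 group means from the 12 libraries together, with its trend and robust options, and each comparison, the interaction included, was a contrast of those means. P-values were adjusted after Benjamini and Hochberg over those genes, and values below 0.05 were called. The code was tested on simulated data. In each role group and comparison, the called member with the largest difference and groups apart was given by library, as were Srebf1, Srebf2, Insig1, Scd1, Scd2, Abca1, Abcg1 and the interaction calls. Of the other pathway genes, the largest rise and fall against vehicle were named where given, and some genes are not reported here. Values of further members were added after they had been seen. Alternatives were quantile normalization, median centring, keeping all genes, a cut-off of 5 FPKM, adding 0.1 in place of 1, limma without trend or robust options, a replicate block, fits on the compared groups alone, voom, and leaving out each library.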

Additional observations from a re-analysis of the deposited data

Results flagged for a closer look

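The difference made by ILA differed between cells with and without GSK805 for 5 members, by limma's interaction adjusted over all genes tested. The interaction on the log2 scale was 0.89 for Acly, whose fall with ILA was smaller under GSK805. It was -0.30 for Srebf2, -0.43 for Scd2 and -0.48 for Nsdhl, whose rises with ILA were smaller under GSK805. For Srebf1 it was -0.22, with log2 differences of -0.06 under GSK805 and 0.16 without it. The calls on Acly and Srebf2 held under every alternative run, and those on Scd2, Nsdhl and Srebf1 did not.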

How the results depend on the processing

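No called member changed direction under any alternative run. Over 4047 values of single genes under alternatives, 3736 stayed on the same side of the threshold, 224 calls were lost and 87 gained. The medians of the lists moved with rescaling, with the smaller pseudocount and with voom. For ILA against vehicle the sterol median of 0.20 became 0.10 with quantile normalization and 0.061 with median centring, and the fatty acid median of 0.49 became 0.33 and 0.36, 0.82 with a pseudocount of 0.1 and 0.84 with voom. For GSK805+ILA against vehicle the sterol median of 0.14 became 0.034 (quantile) and 0.0071 (median centring), and the fatty acid median of 0.16 became 0.065, 0.018, 0.31 (pseudocount 0.1) and 0.34 (voom), with 0.11 to 0.21 when 1 library was left out. For GSK805 against vehicle the fatty acid median became -0.095 with median centring. For GSK805+ILA against GSK805 it became 0.52 with a pseudocount of 0.1 and 0.53 with voom. For GSK805+ILA against ILA the sterol median was -0.21 with voom. For the interaction the fatty acid median was -0.059 with quantile normalization and -0.057 with median centring, and the sterol median -0.27 with voom. The cause of these shifts was not tested.

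The 11 members called with GSK805 against vehicle became 7 with quantile normalization, median centring, a filter at 5 FPKM or only the groups compared, 6 with no filter, and 6 to 10 with 1 library left out. The 5 members called in the interaction became 3 with median centring, 2 with no filter, 10 with voom and 2 to 6 with 1 library left out. Over all genes the interaction had 1871 calls, 1067 with no filter and 1201 to 1974 with 1 library left out, and GSK805+ILA against ILA had 2507 calls, and 1604 to 2580 with 1 library left out. Among calls over all genes, the share that was higher with ILA than with vehicle was 58.6% as deposited, 46.3% with quantile normalization and 40.9% with median centring. For GSK805 it was 68.9%, 55.9% and 40.3%, for GSK805+ILA against vehicle 61.1%, 47.8% and 40.2%, and for GSK805+ILA against GSK805 55.7%, 46.8% and 41.6%. For the interaction the positive share was 37.2%, 46.0% and 63.2%.

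Replicate numbers are shared by the groups, and the main fits used no pairing. Same-numbered libraries had correlations of deviations between -0.08 and 0.08 over 18 pairs. Differently numbered ones had -0.06 to 0.08 over 36 pairs, so no shared deviation was seen. Such values cannot show whether same-numbered libraries came from the same animal or batch. With the replicate block, members called were 23 with ILA, 8 with GSK805 and 20 with GSK805+ILA against vehicle, 15 for GSK805+ILA against GSK805, 12 against ILA and 6 in the interaction. Members near 1 FPKM, such as Fads2, Dhcr7 and Mvk, rest on fewer reads than the rest, and the filter at 1 FPKM left Fdps and Scd1 out of the tests.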
